A study of Mus musculus with 2 samples.

Results

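Lymphatic endothelial cells were picked out of single-cell RNA libraries of the mouse aorta by marker genes. A cell barcode was kept with at least 200 detected genes and at most 20% of its unique molecular identifiers (UMIs, which tag single captured transcripts) from mitochondrial genes. It was counted as lymphatic where at least 3 of Prox1, Ccl21a, Mmrn1, Reln and Flt4 held a UMI and Ptprc, the gene of the leukocyte antigen CD45, held none. This gave 213 members among 16521 kept barcodes, 89 of 7857 with inhibitor and 124 of 8664 with DMSO. The members were thus selected on the UMIs of these marker genes and of Ptprc, so their levels describe the choice and are not results.

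The tissue came from Apoe-/- mice, which lack apolipoprotein E, at an age of 12 weeks, with an abdominal aortic aneurysm (AAA) induced by angiotensin II (Ang II). Every animal of both groups carried the Apoe deletion and the aneurysm model. The inhibitor group received a compound whose name and target the labels leave out, and the DMSO group received the solvent. The sample titles hold initials only, and these were matched to the 2 conditions that the design text names. There is 1 library of 10x Chromium 3' counts for each condition, from dissociated aneurysm tissue, and the sources used here do not say how many animals went into it. With no replicates there is no test. Intervals are exact 95% intervals that cover counting error only, and a barcode is not a replicate of a condition. A level is in CPM, UMIs of a gene per 1000000 UMIs summed over the members of a library. Fewer cells that express a gene and less RNA of it per cell cannot be told apart in such a sum, so the number of members with a UMI is given for the main genes.

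Lymphatic vessels drain fluid, proteins and immune cells from tissue back to the blood. Their endothelium is kept distinct from blood endothelium by the transcription factor Prox1 and grows in response to VEGF-C and VEGF-D through the receptor Flt4 (VEGFR3). Initial capillaries take up fluid and draw in leukocytes with the chemokine Ccl21, while collecting vessels carry valves and a muscle coat. In arteries, lymphatic vessels lie mainly in the adventitia, the outer layer of the wall.

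The members' UMIs ran from 522 through a median of 7284 to 60289 with inhibitor, against 799, 8309.5 and 70081 in the DMSO library. The medians of detected genes were 2833 and 3217, and those of the mitochondrial share were 3.98% and 4.43%. In all, inhibitor members held 1008376 UMIs and DMSO members 1471120, of 79648307 and 101139161 in their libraries. The libraries shared 16 barcode sequences, and 0 of these belonged to a member of both.

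The label of lymphatic endothelium was checked against genes that the choice had not used. Pecam1, Cdh5 and Cldn5, which encode junction proteins of all endothelium, held a UMI in 85.4%, 82.0% and 87.6% of inhibitor members and in 96.0%, 91.1% and 94.4% of DMSO members. In the remaining kept barcodes these shares lay between 5.63% and 18.8% in the inhibitor library and between 11.9% and 22.8% in the DMSO library. Lyve1, a hyaluronan receptor of lymphatic capillaries, held a UMI in 78.7% of inhibitor members and 69.4% of DMSO members, against 6.69% and 4.67% of the remaining barcodes. The members thus carry lymphatic and general endothelial markers that did not choose them. Of 7 blood endothelial markers, Flt1, Vwf and Ly6c1 held a UMI in 18.5% of members or fewer in both libraries and Cd34 in 27.0% of inhibitor and 34.7% of DMSO members. Emcn (74.2% and 79.8%), Plvap (49.4% and 73.4%) and Gpihbp1 (53.9% and 56.5%) were more frequent, against 18.0% or less of the remaining barcodes. Of the rule genes, Mmrn1, a secreted multimerin, held a UMI in all 89 and all 124 members, although the rule did not require it. Prox1 held a UMI in 87.6% and 94.4% of members, Flt4 in 95.5% and 96.0%, Reln, an extracellular glycoprotein, in 78.7% and 83.1%, and Ccl21a in 74.2% and 68.5%. At 1500 UMIs per barcode Prox1 held a UMI in 44.3% of inhibitor and 63.6% of DMSO members. Prox1 ran from 0 through a median of 5.07 to 23 UMIs per 10000 in inhibitor members, against 0, 6.04 and 38.6 in DMSO members. Ccl21a ran from 0 through 76.6 to 417 with inhibitor, against 0, 80.1 and 545 with DMSO. Individual members of both libraries thus overlapped over nearly the whole range. All 5 rule genes were present in 50 inhibitor and 75 DMSO members.

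**Figure D1:**
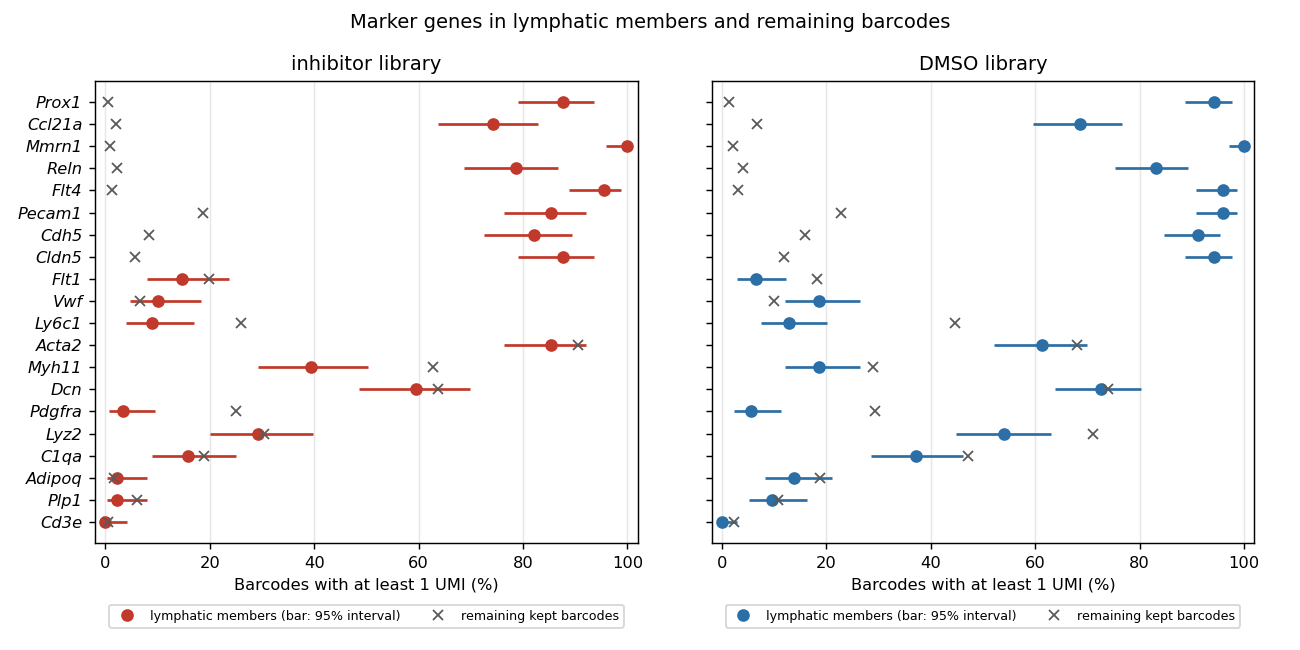
Share of barcodes with at least 1 UMI of each marker gene (x axis, percent) in lymphatic members (dots with exact 95% intervals) and in the remaining kept barcodes (crosses), inhibitor library left and DMSO library right. The rule genes, Pecam1, Cdh5 and Cldn5 lie between 68.5% and 100% in members, while Flt1, Vwf and Ly6c1, 3 of the 7 blood endothelial markers checked, lie at 18.5% or less; Acta2 and Dcn are also found in most members.

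At the threshold, barcodes with exactly 3 rule genes numbered 18 with inhibitor and 23 with DMSO. Cdh5 held a UMI in 66.7% and 91.3% of them. Just outside, 12 inhibitor and 83 DMSO barcodes without Ptprc held exactly 2 rule genes, and Cdh5 held a UMI in 25% and 50.6% of these. A further 4 inhibitor and 13 DMSO barcodes met the marker rule and held Ptprc.

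RNA of other cell types was present in the members and differed between the libraries. The 6 smooth muscle markers summed to 5485 CPM in inhibitor members and 929 CPM in DMSO members, and to 23392 and 5017 CPM in the remaining barcodes of the same libraries. Their share of a member's UMIs ran from 0% to 4.43% with inhibitor and from 0% to 4.34% with DMSO, and it passed 1% in 9 and 2 members. Acta2 held a UMI in 85.4% of inhibitor members and 61.3% of DMSO members. Fibroblast markers summed to 1822 and 1894 CPM, macrophage markers to 83.3 and 247 CPM, and adipocyte markers to 4.96 and 262 CPM. The adipocyte markers' share of a DMSO member's UMIs had a median of 0% and a maximum of 0.50%. A single DMSO barcode of 62775 UMIs held 52 Adipoq, 28 Plin1 and 49 Cidec UMIs, so this sum does not describe DMSO members in general. All 5 T cell markers were at 0 in both, which allows up to about 2.98 CPM in inhibitor and 2.04 CPM in DMSO members. This limit for a count of 0, here and below, is the level of 3 UMIs and is not an exact interval. The 4 mesothelial markers were at 0 too.

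Lymphatic cells were a small part of both libraries. They made up 1.13% of kept inhibitor barcodes (interval 0.911% to 1.39%) and 1.43% of kept DMSO barcodes (interval 1.19% to 1.70%). The log2 ratio of the shares was -0.34, with outer limits of -0.90 and 0.22 formed from opposite ends of the intervals. Other endothelial barcodes, with at least 3 of Pecam1, Cdh5, Flt1, Emcn and Tie1, no Ptprc, no Prox1 and fewer than 3 rule genes, made up 5.94% of the inhibitor library (467) and 9.78% of the DMSO library (847). Lymphatic members were thus 16.0% of the endothelial barcodes with inhibitor (interval 13.1% to 19.3%) and 12.8% with DMSO (interval 10.7% to 15%). These endothelial intervals overlap, as do those of the share of all kept barcodes.

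Lymphatic members were then set beside the other endothelial barcodes of the same library, for genes outside the rule. Among 6993 genes with at least 20 CPM in members or other endothelium of each library, 298 (4.26%) were at least 2-fold higher in members in both libraries, after adding 10 CPM, and 349 (4.99%) were at least 2-fold lower. Of the 18 listed lymphatic identity genes outside the rule, 15 were higher and 1, Ptprb, was lower. Of 15 measured blood endothelial genes, 0 were higher and 12 were lower. Of 17 measured junction genes 3 were higher and 3 lower, and of 20 endoplasmic reticulum genes 0 were higher and 0 lower. Pecam1, Cdh5, Flt1, Emcn and Tie1 chose the other endothelial barcodes, so their levels there partly follow from that choice. Those of them on these lists, such as Flt1 among the blood endothelial genes, were still counted.

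The highest ratio was that of Lyve1, at 1933 CPM in members and 11.5 CPM in other endothelium of the inhibitor library, and at 1959 and 5.12 CPM in the DMSO library. Nts, the gene of the peptide neurotensin, stood at 1762 CPM in members and 20.7 CPM in other endothelium with inhibitor, and at 513 and 12.5 CPM with DMSO. Pard6g, a polarity protein, had 424 and 2.09 CPM in the inhibitor library and 457 and 4.14 CPM in the DMSO library. All of these lay more than an order of magnitude above the other endothelium. Fgl2, Igfbp5, the transcription factor Maf, Dtx1 of the Notch pathway, Cmah, the guidance protein gene Sema3a and the receptor gene Adgrg3 completed the 10 highest, with log2 ratios between 3.42 and 5.26. Nr2f2, the transcription factor COUP-TFII, had 696 and 109 CPM in the inhibitor library and 667 and 182 CPM in the DMSO library. Il7, a lymphocyte survival factor, had 75.4 and 2.36 CPM with inhibitor and 90.4 and 2.44 CPM with DMSO.

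On the low side, Cytl1 had 3.97 CPM in members and 1847 CPM in other endothelium of the inhibitor library, against 5.44 and 504 CPM in the DMSO library. Ly6c1 had 32.7 and 1293 CPM with inhibitor and 55.7 and 1140 CPM with DMSO. Gja5, the arterial connexin 40, was at 0 and 195 CPM with inhibitor and at 0.680 and 117 CPM with DMSO. The same direction was seen in both libraries for Flt1, Sfrp1, Kitl, Ly6a, Timp4, Cfd and Nrp1. Flt1 was among the genes that chose the other endothelial barcodes. Cfd is an adipocyte gene, with 11.9 CPM in inhibitor members and 674 CPM in DMSO members. The leukocyte adhesion gene Vcam1 was also lower, at 42.6 CPM in members and 577 CPM in other endothelium with inhibitor, and at 73.4 and 387 CPM with DMSO.

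The members were not uniform, and the level of Lyve1 marked the axis of variation described here. Lyve1 UMIs per 10000 ran from 0 through a median of 17.6 to 99.2 in inhibitor members, against 0, 15.7 and 94.8 in DMSO members. A Lyve1 UMI was found in 70 inhibitor and 86 DMSO members and was missing in the other 19 and 38. After thinning each barcode to 1500 UMIs, which left out 10 inhibitor and 6 DMSO members, the share with Lyve1 was 65.8% (interval 54.3% to 76.1%) with inhibitor and 59.3% (interval 49.9% to 68.3%) with DMSO.

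Ccl21a is a rule gene, so its distribution among members partly follows from their choice and is given as a description. Ccl21a and Lyve1 both held a UMI in 62 inhibitor and 80 DMSO members, and both were at 0 in 15 and 33 members. Ccl21a summed to 12185 CPM in Lyve1-positive and 458 CPM in Lyve1-zero members with inhibitor, and to 14977 and 489 CPM with DMSO. Of the 58 inhibitor members with at least 10 Ccl21a UMIs, 57 held Lyve1, and of 72 such DMSO members, 68 did. Ccl21a (chr4:42772860-42773993, minus strand, GRCm38) has near-identical copies. The annotated copy Gm21541 differs at 6 aligned bases of the transcript and held 255 UMIs in inhibitor and 483 UMIs in DMSO members, so how reads were split between the copies is uncertain.

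**Figure D2:**
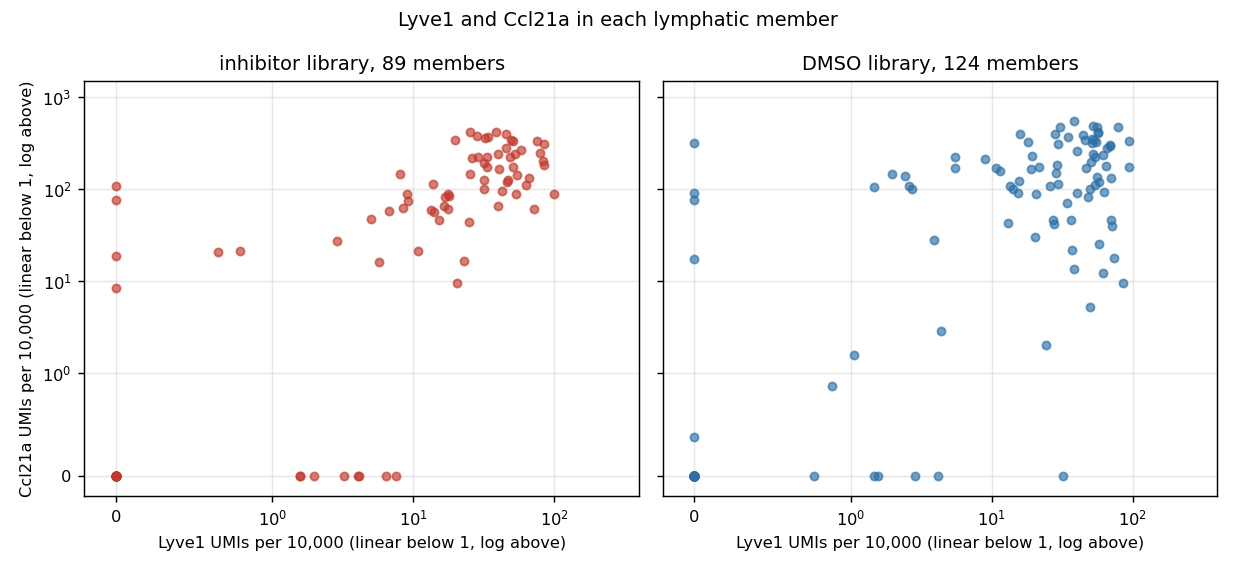
Lyve1 (x axis) and Ccl21a (y axis) UMIs per 10,000 UMIs in each lymphatic member, 1 dot per member, with 89 inhibitor members left and 124 DMSO members right; axes are linear below 1 and logarithmic above. In both libraries most dots form a cloud high in both genes, and the dots at the origin stand for 15 inhibitor and 33 DMSO members with neither gene.

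The genes whose level followed that of Lyve1 most closely were ranked over the 195 members with at least 2000 UMIs, 78 from the inhibitor and 117 from the DMSO library, by Spearman's rho of UMIs per total across 7874 genes. This ranking was chosen after the values had been seen and is a description of cells that share 2 libraries, with no test. Rule genes entered the ranking, and their rho draws on values that chose the members. Lyve1 itself had a rho of -0.21 with total UMIs. The rule genes Reln (0.80), Ccl21a (0.76) and Mmrn1 (0.69) had the highest rho. Outside the rule, the highest were those of Fgl2 (0.65), the mechanosensitive channel gene Piezo2 (0.63) and the chemokine scavenger gene Ackr2 (0.62). Slco2b1, Adgrg3, Sema6a and Dlg1 lay between 0.59 and 0.62. Piezo2 had 132 CPM in Lyve1-positive and 0 CPM in Lyve1-zero members with inhibitor, and 109 and 4.44 CPM with DMSO.

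At the other end, Parm1 (rho -0.65), Plvap (-0.64) and Procr (-0.60) were lower where Lyve1 was higher. Plvap, which forms the diaphragms of fenestrae and caveolae, had 329 CPM in Lyve1-positive and 939 CPM in Lyve1-zero members with inhibitor, and 541 and 1107 CPM with DMSO. Ptgs1, Tm4sf1, Tmem158, Cd81, Car8, Sparc and Gata6 completed the 10 lowest, with rho between -0.56 and -0.53. The transcription factor Foxp2 had 78.8 CPM in Lyve1-positive and 131 CPM in Lyve1-zero members with inhibitor, and 129 and 296 CPM with DMSO. Ackr4, which takes up and clears CCL21 and CCL19, had 1.34 and 57.7 CPM with inhibitor and 66.6 and 253 CPM with DMSO. Its level in Lyve1-positive members rested on 1 UMI with inhibitor and on 68 UMIs in 4 members with DMSO. Of these 68, 58 lay in 1 barcode of 70081 UMIs, 11 of them from Lyve1. Vwf had 6.68 and 92.4 CPM with inhibitor and 12.7 and 231 CPM with DMSO. The valve gene Foxc2 did not keep a direction: it had 48.1 CPM in Lyve1-positive and 84.7 CPM in Lyve1-zero members with inhibitor, but 105 and 71.1 CPM with DMSO.

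**Figure D3:**
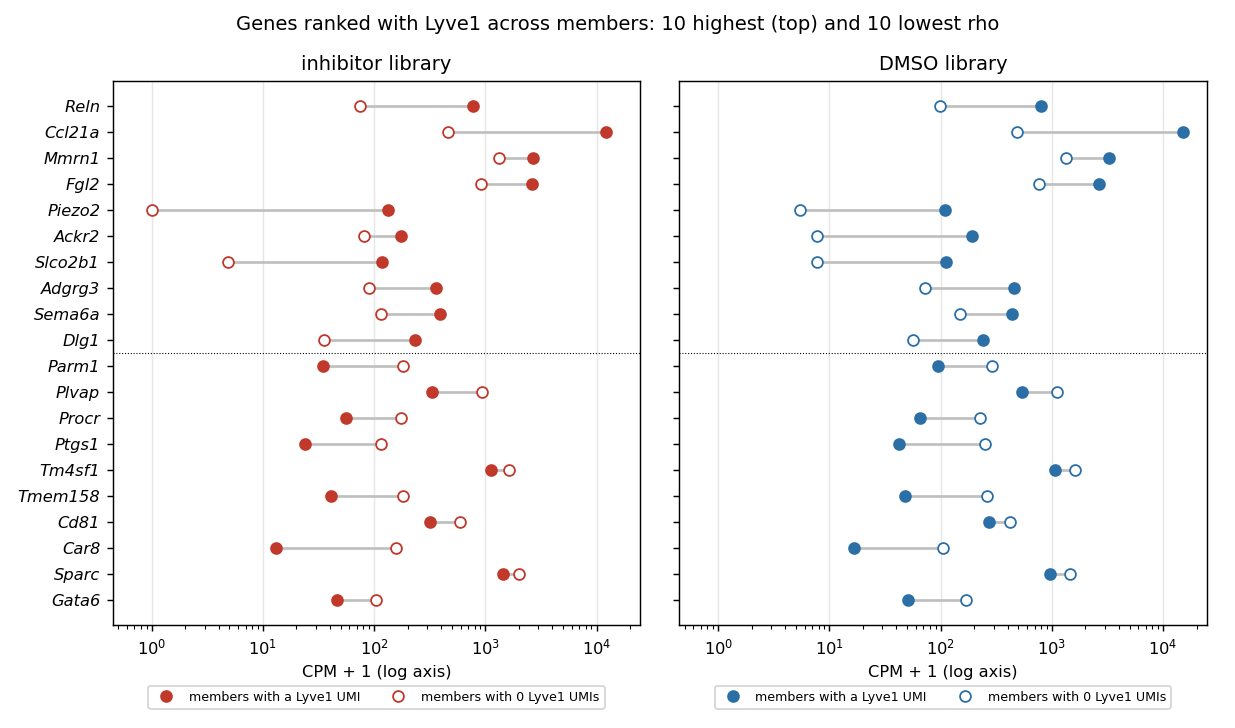
CPM plus 1 (log axis) of the 10 genes with the highest (top) and the 10 with the lowest Spearman's rho with Lyve1, summed over members with a Lyve1 UMI (filled) and without (open), inhibitor library left and DMSO library right. The genes were picked over these same members, 3 of them are rule genes, and the split shows sizes only; Piezo2, for example, has 132 CPM with and 0 CPM without Lyve1 in the inhibitor library.

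For the comparison of inhibitor with DMSO, 7344 genes were measured in members, with at least 20 UMIs over both libraries and 20 CPM in 1 of them. Higher and lower below mean a ratio of CPM of 1.5-fold or more in that direction with a counting interval that leaves out 1. By this rule 449 genes (6.11%) were higher and 812 (11.1%) were lower with inhibitor, and the median log2 ratio, taken after adding 10 CPM, was -0.03. In the other endothelium, 391 of 7221 genes (5.41%) were higher and 656 (9.08%) lower. Without the single barcode that held most UMIs of each gene, the counts in members were 371 and 784. With members of at least 1500 UMIs thinned to that depth they were 152 and 135. The 10 inhibitor and 6 DMSO members with fewer UMIs could not be thinned. These counts rest on fewer UMIs, and the number of genes measured at that depth is not reported here.

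Lymphatic identity genes outside the rule were called about as often as all genes. All 18 were measured, with 1 higher and 2 lower, beside 6.11% and 11.1% of all genes, and a median log2 ratio of 0.07. The rule genes chose the members, so their levels are a description: Prox1 had 502 CPM in inhibitor members and 669 CPM in DMSO members, Flt4 had 670 and 757 CPM, Mmrn1 had 2335 and 2659 CPM, Reln had 595 and 585 CPM, and Ccl21a had 9163 and 10545 CPM. Their median log2 ratio was -0.19, but 0.55 among barcodes with at least 2 rule genes. Lyve1 stood at 1933 CPM with inhibitor and 1959 CPM with DMSO, a ratio of 0.987 (interval 0.931 to 1.05). Pdpn, which binds a platelet receptor and keeps blood and lymph apart, had 342 and 243 CPM, a ratio of 1.41 (interval 1.21 to 1.63). The scavenger receptor gene Stab1 was lower, at 606 and 1001 CPM, and so was Gata2, a transcription factor of lymphatic valves, at 56.5 and 111 CPM. Over the alternative processing choices the log2 ratio of Stab1 ran from -0.81 to -0.069.

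Nts was the identity gene that was higher, at 1762 CPM with inhibitor and 513 CPM with DMSO (ratio 3.44, interval 3.16 to 3.75). It held a UMI in 58 of 89 and 81 of 124 members, the same share in both libraries (65.2% and 65.3%). A pair of inhibitor barcodes without Lyve1 held 543 and 518 of its 1777 UMIs. Without the top pair of each library, the levels were 749 and 453 CPM. In Lyve1-positive members Nts had 753 CPM with inhibitor and 587 CPM with DMSO, a ratio of 1.28, and the call was lost.

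Of 14 measured genes of lymphangiogenic signalling, 1 was higher and 3 were lower (median -0.18), beside 6.11% and 11.1% of all genes. Calcrl, the receptor of the lymphatic growth factor adrenomedullin, had 406 CPM with inhibitor and 262 CPM with DMSO (ratio 1.55, interval 1.35 to 1.79). Its ligand gene Adm had 29.8 and 95.2 CPM (ratio 0.313, interval 0.203 to 0.466), with a UMI in 14 and 24 members. Angpt2, a ligand of the receptor Tie2, had 43.6 and 114 CPM, with a UMI in 13 and 30 members. Pik3r1, a regulatory subunit of PI3 kinase, had 73.4 and 110 CPM. The receptor genes Kdr (501 and 627 CPM), Nrp2 (412 and 509 CPM), Tie1 (243 and 290 CPM) and Tek (135 and 137 CPM) were not called. Vegfc, Ccbe1 and Adamts3, whose products make and process the main growth factor, held at most 3 UMIs in either library.

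Of the 19 transcription factors, all measured, 0 were higher and 6 were lower (median -0.26), beside 6.11% and 11.1% of all genes. Hhex had 50.6 CPM with inhibitor and 128 CPM with DMSO (ratio 0.396, interval 0.285 to 0.542), and 8.18 and 20.8 CPM in the remaining barcodes. Foxp2 (92.2 and 180 CPM), Foxc2 (57.5 and 94.5 CPM), Klf4 (555 and 905 CPM) and Gata2 were lower too. The ratio of Foxc2 was 0.459 in Lyve1-positive members, where it was called lower. In Lyve1-zero members its ratio was 1.19 (interval 0.659 to 2.11) and it was not called. Sox18, Nr2f2, Tbx1, Maf, Nfatc1, Klf2 and Erg were among the 13 that were not called. Of 17 measured genes of collecting vessels and valves, 1 was higher and 5 lower. Of 9 genes of capillary uptake, 0 were higher and 3 lower, again beside 6.11% and 11.1% of all genes. The lists overlap, so their counts are not separate results: Adm, Foxp2, Stab1 and Gata2 were each counted in more than 1 list. Ptx3, a lower uptake gene, had 12 UMIs with inhibitor and 52 with DMSO. Of the 12, 10 lay in 1 barcode, and without the top barcodes Ptx3 was still lower (log2 ratio -1.50).

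Genes of leukocyte trafficking held some of the lowest ratios. Of 18 measured, 1 was higher and 7 were lower (median -0.23), beside 6.11% and 11.1% of all genes. Icam1, the adhesion receptor that leukocytes bind as they cross endothelium, had 43.6 CPM with inhibitor and 230 CPM with DMSO (ratio 0.190, interval 0.135 to 0.261). An Icam1 UMI was found in 31 of 89 inhibitor members (34.8%, interval 25% to 45.7%) and 87 of 124 DMSO members (70.2%, interval 61.3% to 78.0%). No single barcode carried this: the highest held 3 Icam1 UMIs with inhibitor and 17 with DMSO. In the other endothelium Icam1 had 177 and 207 CPM and was not called.

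Ackr4 had 15.9 CPM with inhibitor and 124 CPM with DMSO (ratio 0.128, interval 0.0718 to 0.214), with a UMI in 6 and 22 members, 1 DMSO barcode holding 58 of the 182 UMIs. Both libraries had almost none outside the members, at 0.601 and 1.54 CPM. Cxcl12, which draws CXCR4-bearing cells, had 35.7 and 186 CPM, with 106 of the 274 DMSO UMIs in 1 barcode and 343 and 1033 CPM in the remaining barcodes. Without members that held over 2% of UMIs from smooth muscle, fibroblast, macrophage, adipocyte and Schwann markers, its log2 ratio was -0.68 in place of -2.10. Vcam1 (42.6 and 73.4 CPM), Cxcl1, Cxcl10 and Ccl7 were also lower. Ccl2 was called higher, at 70.4 and 44.9 CPM, but 61 of its 71 inhibitor UMIs lay in 1 barcode, and without the top barcodes its log2 ratio was -1.14. Spns2, the exporter of sphingosine 1-phosphate, had 152 and 180 CPM and Il7 had 75.4 and 90.4 CPM, and neither was called.

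Of 16 measured junction genes, 0 were higher and 0 were lower, beside 6.11% and 11.1% of all genes, with a median of -0.04. Without the top barcodes 1 was lower. Cdh5, the VE-cadherin gene, had 523 CPM with inhibitor and 483 CPM with DMSO, and Cldn5 had 1135 and 1471 CPM.

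**Figure D4:**
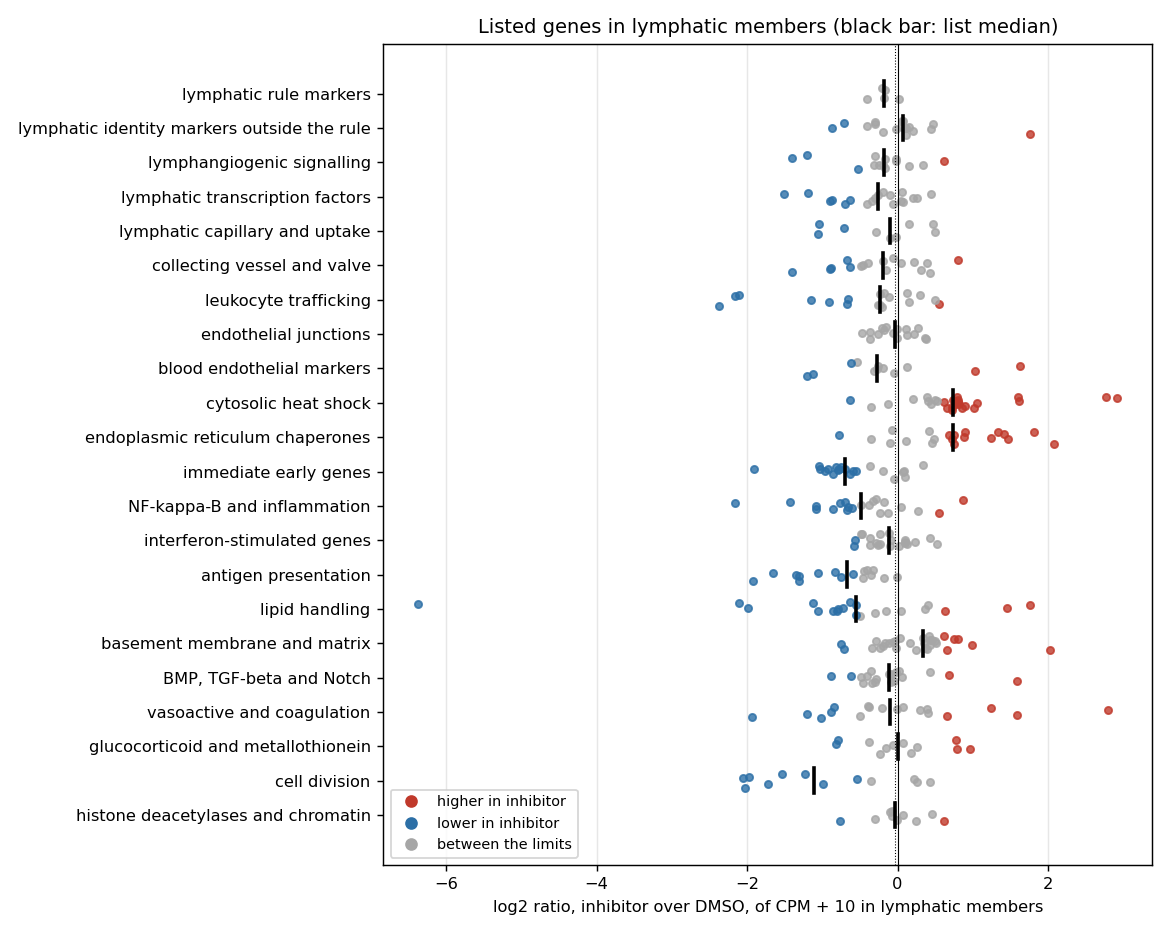
Log2 ratio, inhibitor over DMSO, of CPM plus 10 in lymphatic members (x axis) for each measured gene of 22 lists (rows), coloured by whether the gene was higher, lower or neither; black bars are list medians and the dotted line is the median of all measured genes. Heat shock and endoplasmic reticulum lists have medians of 0.74, immediate early genes -0.70, antigen presentation -0.67 and cell division -1.11, beside -0.03 for all genes.

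Chaperones of the endoplasmic reticulum were higher with inhibitor. Of 20 listed genes, all measured, 12 were higher and 1 was lower, beside 6.11% and 11.1% of all genes, with a median log2 ratio of 0.74. Hspa5, the luminal HSP70 known as BiP, had 1838 CPM with inhibitor and 769 CPM with DMSO (ratio 2.39, interval 2.22 to 2.58). Hsp90b1, the luminal HSP90, had 1653 and 652 CPM (ratio 2.54, interval 2.34 to 2.75). Creld2, a chaperone induced by misfolded protein, had 153 and 28.5 CPM (ratio 5.35, interval 3.78 to 7.72), with a UMI in 42 of 89 and 31 of 124 members. Both shares are of members of differing depth, and the inhibitor members were the shallower ones. Sdf2l1 had 114 and 25.2 CPM, Manf had 683 and 241 CPM, and the disulfide isomerase gene Pdia6 had 478 and 173 CPM.

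The transcription factor genes Atf4, Xbp1 and Ddit3 of the same stress pathways, and Trib3, were not among those that were higher. Atf4 was lower, at 143 CPM with inhibitor and 251 CPM with DMSO, Xbp1 had 197 and 145 CPM, and Ddit3 (54.5 and 59.1 CPM) and Trib3 (20.8 and 22.4 CPM) were not called. Without members that held over 2% of UMIs from other cells' markers, the list median was 0.88, and without the top barcode of each gene 12 were still higher. In the other endothelium, 6 of 19 measured genes were higher and 0 were lower (median 0.39). Creld2 had 83.2 and 31.4 CPM there and Hspa5 had 1176 and 689 CPM. The difference between the kinds of endothelium was not tested.

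**Figure D5:**
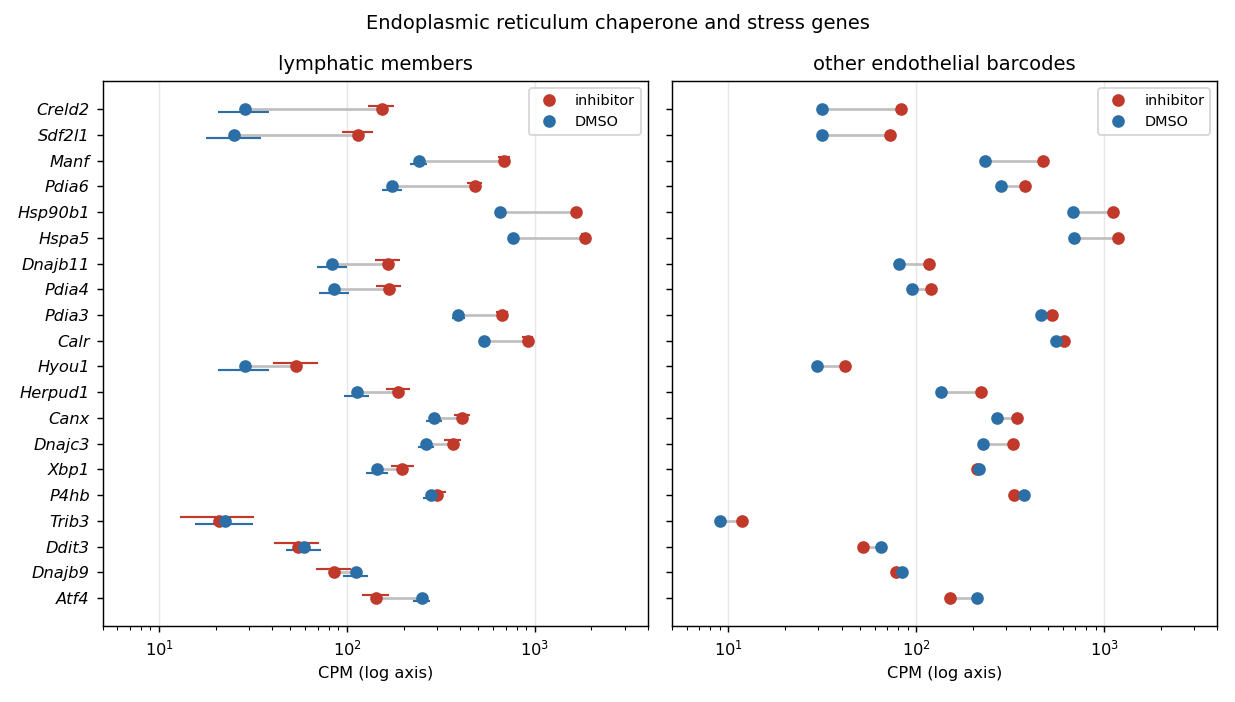
CPM (log axis) of the 20 listed endoplasmic reticulum genes, ordered by ratio in members, in lymphatic members (left, with exact 95% counting intervals) and in other endothelial barcodes (right), for the inhibitor and DMSO libraries. In members 12 of the 20 genes are higher with inhibitor and Atf4 is lower; in other endothelium 6 are higher.

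Promoters of such chaperones are known for the endoplasmic reticulum stress element, which the factors ATF6 and NF-Y bind together. The element was searched as CCAAT, any 9 bases and CCACG, on both strands, in RefSeq windows of GRCm38.p6 that span 250 bases before to 50 bases after a gene's start. It was found in 39 of 32851 windows of all genes (0.119%). Manf and Hyou1 were not matched to a window. Of 18 listed genes with a window, 7 held it, namely Hspa5, Hsp90b1, Creld2, Calr, Canx, Pdia6 and Dnajc3. Of these 7 genes, 5 were higher with inhibitor, and of the 11 without it, 5 were higher. Sequences of 4 genes that were higher are shown because they carry the element. They give the 250 bases before the start, 5′ to 3′ along the gene, with the element in capitals.
Creld2, chr15:88819396-88819645, plus strand: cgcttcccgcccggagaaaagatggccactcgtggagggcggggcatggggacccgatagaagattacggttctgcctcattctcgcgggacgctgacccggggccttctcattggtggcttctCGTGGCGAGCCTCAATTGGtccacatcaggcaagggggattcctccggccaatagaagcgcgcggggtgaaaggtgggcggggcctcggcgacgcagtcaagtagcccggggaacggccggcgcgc
Hspa5, chr2:34771840-34772089, plus strand: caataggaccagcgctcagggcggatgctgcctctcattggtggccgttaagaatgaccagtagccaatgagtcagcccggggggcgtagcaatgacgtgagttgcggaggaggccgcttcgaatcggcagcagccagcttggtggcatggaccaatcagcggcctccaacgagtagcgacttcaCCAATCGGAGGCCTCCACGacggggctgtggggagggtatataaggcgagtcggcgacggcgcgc
Pdia6, chr12:17266339-17266588, plus strand: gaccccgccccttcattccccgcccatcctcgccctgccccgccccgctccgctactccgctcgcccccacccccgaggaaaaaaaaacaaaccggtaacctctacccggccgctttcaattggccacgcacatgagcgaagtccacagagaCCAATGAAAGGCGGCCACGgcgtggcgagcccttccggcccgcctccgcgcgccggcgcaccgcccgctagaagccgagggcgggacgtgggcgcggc
Hsp90b1, chr10:86705445-86705694, minus strand: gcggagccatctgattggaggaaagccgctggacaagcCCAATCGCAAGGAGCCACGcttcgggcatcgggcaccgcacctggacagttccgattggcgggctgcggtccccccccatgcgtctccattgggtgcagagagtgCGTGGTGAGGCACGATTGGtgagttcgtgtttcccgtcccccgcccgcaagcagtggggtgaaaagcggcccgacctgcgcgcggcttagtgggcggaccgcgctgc
In Hspa5 and Pdia6 the element reads forward, from 65 to 47 and from 98 to 80 bases before the start. In Creld2 it lies on the other strand, 126 to 108 bases before the start. Hsp90b1 holds it in both directions, from 212 to 194 and from 107 to 89 bases before the start. A match is a description of the sequence and does not show binding.

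Cytosolic heat shock genes were higher as well. Of 27 listed genes, all measured, 18 were higher and 1, the transcription factor Hsf2, was lower, beside 6.11% and 11.1% of all genes. Their median log2 ratio was 0.74. Hspb1, a small heat shock protein, had 1627 CPM with inhibitor and 206 CPM with DMSO (ratio 7.90, interval 6.99 to 8.96). Cryab, another small heat shock protein, had 300.5 and 35.3 CPM, and the inducible HSP70 genes Hspa1b and Hspa1a had 337 and 103 CPM and 417 and 131 CPM. Smooth muscle RNA moved with these genes. Hspb1 stood at 7004 and 621 CPM and Cryab at 1362 and 229 CPM in the remaining barcodes. There Hspa1b stood at 893 and 106 CPM and Hspa1a at 1679 and 229 CPM. In members 109 of the 420 inhibitor UMIs of Hspa1a lay in 1 barcode. Over the alternative processing choices the log2 ratio of Hspa1a in members ran from 0.26 to 1.96. Without members that held over 2% of UMIs from other cells' markers, the log2 ratio of Hspb1 was 1.77 in place of 2.92, that of Cryab was 1.10 in place of 2.78, and the list median was 0.55. The part of other cells' RNA in what then remained was not tested. In the other endothelium 19 of 26 measured genes were higher and 0 were lower (median 0.94).

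Immediate early genes, which cells induce within minutes of a stimulus, were lower with inhibitor. Of 21 measured, 0 were higher and 14 were lower (median -0.70), beside 6.11% and 11.1% of all genes. Nr4a1, an orphan nuclear receptor, had 14.9 CPM with inhibitor and 82.9 CPM with DMSO, with a UMI in 12 and 50 members. Zfp36 (42.6 and 98.6 CPM), Gadd45b (106 and 228 CPM), Dusp6 (75.4 and 156 CPM), Egr1 (275 and 493 CPM) and Fos (309 and 484 CPM) were lower too. Jund (692 and 643 CPM) and Klf6 (432 and 406 CPM) were not called. The other endothelium had the same count of higher genes, 0 of 21, and 13 lower, with a median of -0.61.

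Of 21 measured genes of NF-kappa-B signalling and inflammation, 2 were higher and 10 were lower (median -0.49), beside 6.11% and 11.1% of all genes. Nfkbiz had 45.6 CPM with inhibitor and 140 CPM with DMSO, the alarmin gene Il33 had 55.5 and 128 CPM, and Birc3 had 5.95 and 23.8 CPM. Icam1 and Vcam1 are also on this list. Ptgs2 was higher, at 25.8 and 9.52 CPM, from 26 and 14 UMIs, and Ccl2 is described above. Interferon-stimulated genes were near the background: of 21 measured, 0 were higher and 2, Isg15 and Stat2, were lower, with a median of -0.12.

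Genes of antigen presentation were lower in the members. Of 16 measured, 0 were higher and 9 were lower (median -0.67), beside 6.11% and 11.1% of all genes. The class II genes Cd74 (32.7 and 152 CPM), H2-Ab1 (19.8 and 84.3 CPM) and H2-Eb1 (18.8 and 63.2 CPM) were lower with inhibitor. They are abundant in macrophages and were also lower in the remaining barcodes, where Cd74 had 1223 CPM with inhibitor and 2461 CPM with DMSO. Macrophage markers in members moved the same way, at 83.3 and 247 CPM, and their part in the result was not tested. H2-Q4, a class Ib gene, had 40.7 and 116 CPM in members and only 29.7 and 56.2 CPM in the remaining barcodes. In the other endothelium H2-Q4 had 181 and 139 CPM, and of the 16 listed genes measured there 0 were higher and 1 was lower.

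Matrix genes leaned upward: of 30 listed, all measured, 6 were higher and 2 were lower (median 0.34), beside 6.11% and 11.1% of all genes. Mgp, an inhibitor of calcification, had 2587 CPM with inhibitor and 626 CPM with DMSO (ratio 4.13, interval 3.83 to 4.46), with a UMI in 82 and 116 members. It was at 10404 and 7447 CPM in the remaining barcodes and at 8484 and 8319 CPM in the other endothelium. Without the barcodes of highest Scrublet doublet score the log2 ratio of Mgp was 0.99 in place of 2.03. Over all alternative processing choices it ran from 0.14 to 2.48. Col18a1, a basement membrane collagen, had 605 and 300.5 CPM. Fn1, the fibronectin gene that also builds lymphatic valve leaflets, had 1180 and 670 CPM. In the remaining barcodes Col18a1 had 731 and 261 CPM and Fn1 had 3205 and 2123 CPM. In the other endothelium Col18a1 had 415 and 395 CPM and Fn1 had 1646 and 1808 CPM, and neither was called. The part of other cells' RNA in these ratios was not tested. Thbs1 (143 and 240 CPM) and Mmp2 (21.8 and 43.5 CPM) were lower in members. Over the alternatives the log2 ratio of Mmp2 ran from -1.75 to -0.0047.

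Vasoactive and coagulation genes moved both ways, with 4 of 18 higher and 5 lower (median -0.11), beside 6.11% and 11.1% of all genes. Plat, the tissue plasminogen activator, had 347 CPM with inhibitor and 141 CPM with DMSO. Ptgis, the prostacyclin synthase, had 192 and 19.0 CPM, with a UMI in 24 and 12 members and with 801 and 259 CPM in the remaining barcodes. Without the barcodes of highest Scrublet score its log2 ratio was 0.98 in place of 2.80. The endothelin gene Edn1 had 15.9 and 89.0 CPM, with a UMI in 6 and 25 members, and the endothelin receptor gene Ednrb had 187 and 354 CPM. Vwf (28.8 and 79.5 CPM) and Ptgs1 (46.6 and 105 CPM) were lower. Edn1, Vwf and Ptgs1 all had lower levels in Lyve1-positive than in Lyve1-zero members of both libraries. Within Lyve1-zero members they were also lower with inhibitor, at ratios of 0.217 for Edn1, 0.400 for Vwf and 0.464 for Ptgs1. Within Lyve1-positive members Edn1 (0.144, interval 0.0162 to 0.595) was lower, from 2 and 19 UMIs. Ptgs1 (0.552, interval 0.295 to 0.991) was lower there from 17 and 42 UMIs, and Vwf (0.525, interval 0.146 to 1.57) was not called.

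Several of the lowest ratios rested on single barcodes. Scd1, a fatty acid desaturase, had 12.9 CPM with inhibitor and 1882 CPM with DMSO, but 2577 of its 2768 DMSO UMIs lay in 1 barcode of 62775 UMIs. The same barcode held 331 of 365 Fasn, 549 of 982 Lpl, 191 of 221 Cox8b, 133 of 149 Gpd1 and 1651 of 5153 Fabp4 UMIs. It also held 52 Adipoq, 28 Plin1 and 49 Cidec UMIs, which mark adipocytes. Without top barcodes Fasn and Thrsp were no longer called, and Lpl was lower by a log2 ratio of -1.21 in place of -2.11. Another DMSO barcode held 243 of the 271 Cxcl13 UMIs, while inhibitor members had 0, which allows up to about 2.98 CPM. Of 21 measured lipid genes 3 were higher and 12 lower, beside 6.11% and 11.1% of all genes. Without top barcodes 2 lipid genes were higher and 10 lower. Fdps (80.3 and 23.1 CPM) and Idi1 (37.7 and 4.08 CPM) of sterol synthesis were higher with inhibitor, the second in only 5 members of each library.

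Of 12 measured division genes, 0 were higher and 8 were lower (median -1.11), beside 6.11% and 11.1% of all genes. At least 3 of 6 division genes were found in 3 inhibitor and 4 DMSO members. A single DMSO barcode held 377 of the 522 UMIs of these 6 genes, while inhibitor members had 63 in all. Without top barcodes 5 of the 12 genes were lower, and Mki67 and Cenpf were not called. The metallothionein genes Mt1 (817 and 470 CPM) and Mt2 (279 and 139 CPM) were called higher with inhibitor, but 677 of 824 and 212 of 281 inhibitor UMIs lay in 1 barcode. Without top barcodes their log2 ratios were -1.28 and -0.57. Of the 12 listed glucocorticoid and metallothionein genes, all measured, 3 were higher and 2 lower. Of 10 genes of histone deacetylases and chromatin, 1 was higher and 1 lower, again beside 6.11% and 11.1% of all genes.

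Of 19 measured genes of BMP, TGF-beta and Notch signalling, 2 were higher and 2 lower (median -0.11), beside 6.11% and 11.1% of all genes. Of 12 measured blood endothelial genes, 2 were higher, namely Flt1 and Rbp7, and 3 were lower, namely Vwf, Ly6c1 and Fabp4. For Ly6c1, 42 of 82 DMSO UMIs lay in 1 barcode, and without the top barcodes its log2 ratio was -0.18 and it was not called. For Fabp4, 1651 of 5153 DMSO UMIs lay in 1 barcode, and without the top barcodes it was still lower (log2 ratio -0.80). In Lyve1-positive members the ratio of Fabp4 was 0.816 and it was not called. In the remaining barcodes Fabp4 had 1477 CPM with inhibitor and 5087 CPM with DMSO. Flt1 had 56.5 CPM with inhibitor and 11.6 CPM with DMSO, with a UMI in 13 and 8 members.

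The genes with the highest and lowest ratios overall were ranked only where the higher level was at least 50% of that in the remaining barcodes. Creld2, Sdf2l1, Nts, Flt1, Manf, Fdps and Pdia6 of those described above were among the 10 highest. Cyp1a1, which metabolises foreign compounds and is induced through the aryl hydrocarbon receptor, had 85.3 CPM with inhibitor and 8.16 CPM with DMSO (ratio 10.5, interval 5.69 to 21). It held a UMI in 8 and 2 members and had 0.818 and 1.22 CPM in the remaining barcodes. In Lyve1-positive members its log2 ratio was 0.49 in place of 2.39. Pgf, placental growth factor, had 65.5 and 15.6 CPM, with a UMI in 19 and 12 members. At the low end Apod (42.6 and 236 CPM) and Slc4a4 (3.97 and 54.4 CPM) were among the 10 lowest, with 199 of 347 and 44 of 80 DMSO UMIs in 1 barcode. The others were Scd1, Cxcl13, Cox8b, Gpd1, Fasn, Thrsp, Ackr4 and Icam1.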

How the data were processed

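The deposited values are raw UMI counts per gene and barcode, which the file headers credit to Cell Ranger 6.1.1. The submitters' processing notes also name Seurat and the build GRCm38, which matched the gene identifiers. Members were chosen by the marker rule, and the members and 22 gene lists were chosen with earlier results of these data known. Counts were summed over members of each library and scaled to CPM. Genes with at least 20 UMIs over both libraries and 20 CPM in 1 were measured. Ratios have exact 95% counting intervals, and log2 ratios add 10 CPM. Intervals cover counting error only, since cells of 1 library are not replicates and each condition has 1 library. Named genes (95) are the rule genes, up to 4 higher and 4 lower members of each list with the largest log2 ratios, and the 10 highest and 10 lowest ratios overall and against other endothelium. The overall ranking asked for 50 CPM, 30 UMIs and 10 members with a UMI, and left out mitochondrial, ribosomal protein, haemoglobin and unnamed genes. Other genes in the text were named as list members that were not called, or after their values were seen. Barcodes were thinned to 1500 UMIs with a fixed seed. Doublets were not removed, and leaving out the 6% highest Scrublet scores was an alternative. Alternatives numbered 16, with 2 more chosen after seeing the data. The computation was tested on simulated data. Tools were Python 3.11.15, numpy 2.4.6, scipy 1.17.1, pandas 2.3.3, scanpy 1.11.5, matplotlib 3.10.9 and R 4.3.3 with edgeR 4.0.16 for scaling factors only. Some genes that the naming rule selects are not reported here.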

Additional observations from a re-analysis of the deposited data

Results flagged for a closer look

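For 6 of the 95 named genes the log2 ratio of inhibitor over DMSO lay on opposite sides of 0 in lymphatic members and in the other endothelium, each past 1.5-fold with a counting interval that left out 1. With 1 library per condition the difference was not tested. Bmp4, a bone morphogenetic protein, was at -0.89 in members and 0.78 in other endothelium. Over the alternative processing choices its log2 ratio in members ran from -1.20 to -0.0051. The ratio of Bmp4 was 0.364 in Lyve1-positive members, where it was called lower. In Lyve1-zero members the ratio was 0.645 (interval 0.360 to 1.11) and it was not called. Vwf was at -1.21 and 0.61, and Thbs1, a matrix thrombospondin, at -0.71 and 0.83. Plat was at 1.24 and -0.76, Ccl2 at 0.55 and -3.16, and Mt2 at 0.96 and -0.90. For Plat 119 of 350 inhibitor UMIs lay in 1 member barcode, for Ccl2 61 of 71 and for Mt2 212 of 281. Without the top barcodes Plat was still higher in members (log2 ratio 0.79), while Ccl2 and Mt2 were lower.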

How the results depend on the processing

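No paired analysis was possible because each condition holds 1 library, and for the same reason no replicate could be left out. The log2 ratio of the lymphatic share of kept barcodes kept its sign under all 7 alternative choices of members and barcodes. Over the alternatives, the median log2 ratio lay between 0.55 and 0.82 for heat shock genes, between 0.57 and 0.88 for endoplasmic reticulum genes and between -0.76 and -0.39 for immediate early genes. The median of the identity list, 0.07, was 0.49 with at least 2 rule markers, 0.15 with each member weighted equally and 0.26 after thinning to 1500 UMIs. The counts of 449 higher and 812 lower genes became 211 and 430 with a 2-fold limit and 152 and 135 after thinning. Among log2 ratios of named genes, 1253 stayed within their counting interval, 336 moved further and 26 of called genes changed sign. With at least 2 rule markers these were Flt1 (-1.52), Ecm1 (-0.20), Mt2 (-0.41) and Mt1 (-0.46). Rule genes, which were not called, changed sign there too, with Prox1 at 0.29, Ccl21a at 0.55, Mmrn1 at 0.55 and Flt4 at 0.52. Ly6c1 changed to 0.27 with at least 4 rule markers, 0.18 with Prox1 required and 0.45 with equal weights. Without the highest Scrublet scores Ecm1 was at -0.14, Mt2 at -0.77 and Mt1 at -1.89. In members with Lyve1, Mt2 was at -0.30, Mt1 at -0.94 and Cenpf at 0.039. Equal weights gave Ccl2 -0.71 and Hmgcs1 -0.45. Thinning gave Pik3r1 0.40, Gja4 0.68, Ccl2 -0.78, Ptgs2 -0.65, Hmgcs1 -0.82, Mt1 -0.20, Zbtb16 -0.081 and Mki67 1.43. Without the top barcode of each gene Ccl2 was at -1.14, Mt2 at -0.57 and Mt1 at -1.28. The sign changes under that last setting come from leaving out 1 barcode a library. For the others the cause was not tested. A gene at 0 can lie at up to about 2.98 CPM with inhibitor and 2.04 CPM with DMSO, so low genes cannot be compared at this depth. These limits are the level of 3 UMIs and are approximate.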
